A study of Homo sapiens with 8 samples.

Results

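The COP9 signalosome genes are the subject here. They were chosen by symbol: genes whose single symbol in the probe-to-gene annotation begins with PSM, a letter from A to G and a digit, or with COPS and a digit from 2 to 9, without pseudogenes. The rule found 14 genes among the 14884 measured. Of these, 9 encode COP9 signalosome subunits (COPS2, COPS3, COPS4, COPS5, COPS6, COPS7A, COPS7B, COPS8 and COPS9), 4 are long non-coding RNA genes named after proteasome genes (PSMA3-AS1, PSMB8-AS1, PSMD6-AS2 and PSMG3-AS1), and 1 is PSMC3IP, which encodes a recombination factor and not a proteasome subunit. None of the 14 is a proteasome subunit, so the core, the cap and the immunoproteasome were not analysed here, and the name proteasome genes does not describe what was measured.

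RNA came from PC-3, a human cell line from a prostate cancer that grows without androgen, and each of 8 Affymetrix arrays read 1 clonal isolate. The RWDD4 group held 4 clones (17, 24, 5 and 6) carrying a lentiviral vector with RWDD4, and the control group held 4 clones (2, 3, 4 and 5) carrying the same kind of vector without an insert. All 8 had been selected with blasticidin (spelled blastocydin in the series' text), and the promoter that drives RWDD4 is not given in the sources used here. The design compares expression in clones that overexpress RWDD4 with expression in clones that do not.

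The COP9 signalosome is a conserved complex that removes the ubiquitin-like protein NEDD8 from cullins, the scaffolds of the cullin-RING ubiquitin ligases. Its catalytic subunit COPS5 is a metalloprotease with an MPN domain, COPS6 is the MPN partner of COPS5, and GPS1, COPS2, COPS3, COPS4, COPS7A or COPS7B, and COPS8 carry PCI domains that form the scaffold. The complex resembles the lid of the proteasome in its subunit plan, and cycles of NEDD8 attachment and removal let cullins exchange their substrate receptors.

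Levels are the deposited log2 values, which compare 1 gene between arrays and do not rank genes against each other. The RWDD4 gene had 9.87 to 10.46 in clones given RWDD4, against 6.64 to 7.996 in clones with the empty vector. It was 2.94 higher (SE 0.25), and the exact two-sided permutation p, 0.0286, is the lowest possible with 4 clones a group. The median over the measured genes was 6.09 to 6.13 across RWDD4 clones, against 5.89 to 6.03 across control clones. Of the listed markers of PC-3, 6 of 7 were measured, with a mean level of 8.25 to 8.32 across RWDD4 clones, against 8.19 to 8.26 across control clones. Among these 6, CD44 and VIM rose, by 0.73 each, and KRT19, KRT18 and KRT8 fell, by 0.54, 0.40 and 0.28. KLK3, the 1 measured gene of those lost or silent in this line, had 5.55 to 5.89 across RWDD4 clones, against 5.49 to 6.10 across control clones. Of the blood cell markers CD14 and CD68 were measured, 2 of 5, with a mean level of 7.06 to 7.35 across RWDD4 clones, against 7.32 to 7.70 across control clones, and both fell. Of the 6 stroma and endothelium markers 4 were measured, with a mean level of 4.66 to 4.74 across RWDD4 clones, against 4.81 to 5.02 across control clones, and THY1 and VWF fell. The part of these markers in the results was not tested. In RNA of whole cultures, fewer cells that express a gene and less RNA of it per cell cannot be told apart.

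A gene is said to have risen or fallen when its adjusted p in the limma fit over all 14884 genes was under 0.05. Of the 9 COP9 signalosome genes 5 rose in the RWDD4 clones, where 25.1% of all genes rose, and 1 fell, where 21.6% of all genes fell. The 6 that changed stand beside 46.7% of all genes that changed in either direction. The risers were COPS2, COPS3, COPS4, COPS5 and COPS8. COPS7A fell, and COPS6, COPS7B and COPS9 did not pass the test. The median difference over the 9 genes was 0.88 on the log2 scale, beside -0.08 over all genes. The groups did not overlap in any riser or in COPS7A, that is, in 5 genes with all RWDD4 clones above and 1 with all below the control clones, where 23.7% and 21.1% of all genes did so, or 44.8% in either direction. COPS2, COPS4 and COPS8 rose at least 2-fold, 3 of the 9 genes, beside 9.74% of all genes. With so few members these counts describe the complex and carry no test of their own.

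**Figure D1:**
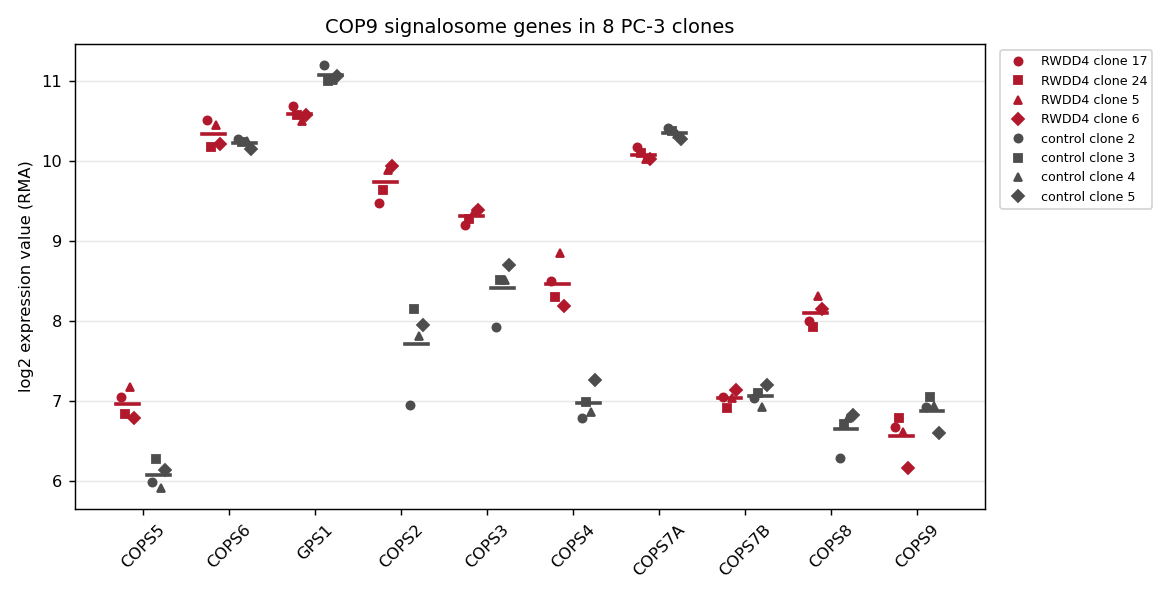
Log2 expression value of the 9 COPS genes and GPS1 in each clone (RWDD4 clones in red at the left of each gene, control clones in grey at its right; 1 symbol per clone, bars are group means). The 4 RWDD4 clones lie above all control clones for COPS2, COPS3, COPS4, COPS5 and COPS8, and below them for COPS7A and GPS1.

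COPS5 encodes the subunit that cleaves NEDD8 from cullins. Its level was 7.05, 6.84, 7.17 and 6.79 in RWDD4 clones 17, 24, 5 and 6, and 6.00, 6.28, 5.92 and 6.14 in control clones 2, 3, 4 and 5. Every RWDD4 clone lay above every control clone, with a gap of 0.51 between the groups. COPS5 rose by 0.88 (SE 0.12; adjusted p 0.000239), which is 1.84-fold. COPS6, its MPN partner without protease activity, had 10.51, 10.17, 10.44 and 10.20 in RWDD4 clones 17, 24, 5 and 6, and 10.27, 10.24, 10.25 and 10.14 in control clones 2, 3, 4 and 5. The groups overlapped, RWDD4 clones 17 and 5 being the highest of the 8. The difference of COPS6 was 0.11 (SE 0.10; adjusted p 0.397). With each array's trend over genomic span (the length of a gene from first to last base) removed, COPS6 passed, at 0.26 (SE 0.10; adjusted p 0.0473). The difference between the changes of COPS5 and COPS6 was not tested.

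COPS2, a PCI subunit that contacts the cullin-RING ligase, had the largest difference of the 9 genes and ranked 87 by difference among all 14884. Its level was 9.47, 9.63, 9.89 and 9.94 in RWDD4 clones 17, 24, 5 and 6, and 6.96, 8.15, 7.81 and 7.95 in control clones 2, 3, 4 and 5. The groups were 1.32 apart, and control clone 2 lay below the other control clones. COPS2 rose by 2.01 (SE 0.23; adjusted p 0.00011), which is 4.03-fold. Without control clone 2 it was 1.76 (SE 0.13).

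COPS4, another PCI subunit, lies beside the COPS5 and COPS6 pair in the complex. It had 8.50, 8.30, 8.85 and 8.19 in RWDD4 clones 17, 24, 5 and 6, and 6.80, 6.996, 6.87 and 7.27 in control clones 2, 3, 4 and 5. The lowest RWDD4 clone lay 0.92 above the highest control clone. COPS4 rose by 1.47 (SE 0.15; adjusted p 8.19e-05), which is 2.78-fold.

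COPS8, the smallest of the PCI subunits, had 8.01, 7.93, 8.31 and 8.16 in RWDD4 clones 17, 24, 5 and 6, and 6.29, 6.71, 6.79 and 6.83 in control clones 2, 3, 4 and 5. The gap between the groups was 1.10. COPS8 rose by 1.44 (SE 0.14), which is 2.72-fold, and its adjusted p of 6.32e-05 was the lowest of the 9 genes.

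COPS3, also a PCI subunit, had 9.20, 9.28, 9.37 and 9.38 in RWDD4 clones 17, 24, 5 and 6, and 7.93, 8.51, 8.51 and 8.69 in control clones 2, 3, 4 and 5. The RWDD4 clones were close together, with an SD of 0.08, against 0.33 in the control clones. COPS3 rose by 0.89 (SE 0.15; adjusted p 0.000833), which is 1.86-fold, and by 0.73 (SE 0.10) without control clone 2.

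COPS7A and COPS7B are paralogs that take the same place in the complex. COPS7A had 10.17, 10.10, 10.02 and 10.02 in RWDD4 clones 17, 24, 5 and 6, and 10.41, 10.37, 10.34 and 10.28 in control clones 2, 3, 4 and 5. All RWDD4 clones lay below all control clones, by a gap of 0.11. COPS7A fell by 0.27 (SE 0.08), that is 1.21-fold, and its adjusted p was 0.021, but 0.0608 without RWDD4 clone 5, 0.0565 without RWDD4 clone 6 and 0.106 with each array's trend over genomic span removed. COPS7B had 7.05, 6.92, 7.04 and 7.14 in RWDD4 clones 17, 24, 5 and 6, and 7.04, 7.10, 6.93 and 7.20 in control clones 2, 3, 4 and 5. The ranges of its groups overlapped almost wholly. The difference of COPS7B was -0.03 (SE 0.09; adjusted p 0.782). Neither paralog rose.

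COPS9, a small acidic subunit, had 6.68, 6.79, 6.62 and 6.17 in RWDD4 clones 17, 24, 5 and 6, and 6.92, 7.05, 6.93 and 6.60 in control clones 2, 3, 4 and 5. Control clone 5 lay below 3 of the RWDD4 clones, and the other control clones lay above all RWDD4 clones. The difference was -0.31 (SE 0.15; adjusted p 0.101). It passed without control clone 5 (-0.41, adjusted p 0.0466) and under each of the 3 further scalings, at -0.43, -0.44 and -0.41.

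GPS1 encodes the remaining large subunit, CSN1, and its symbol does not match the rule. It had 10.68, 10.57, 10.49 and 10.57 in RWDD4 clones 17, 24, 5 and 6, and 11.19, 11.00, 11.00 and 11.06 in control clones 2, 3, 4 and 5. GPS1 was lower in every RWDD4 clone. It fell by 0.48 (SE 0.09; adjusted p 0.00136), which is 1.40-fold. With GPS1 counted, 5 of the 10 transcripts of the complex rose, 2 fell and 3 did not pass, where 25.1% of all genes rose and 21.6% fell. The 2 falls, 20.0% of the 10, lie near the share of all genes. Among the 7 PCI subunits 4 rose and 2 fell, beside the same shares. GPS1 and COPS7A both lie in the second decile of the protein-coding genes by genomic span, where 38.7% fell. With each array's trend over span removed GPS1 lay at -0.37 (SE 0.09; adjusted p 0.00548). The median difference with GPS1 was 0.49, beside 0.88 for the 9 genes without it.

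The clones of a group also differed from each other. The mean level of the 5 risers, which were grouped by their result and are given as a description, was 8.45, 8.39, 8.72 and 8.49 in RWDD4 clones 17, 24, 5 and 6, and 6.79, 7.33, 7.18 and 7.38 in control clones 2, 3, 4 and 5. The mean of the other 4 members was 8.60, 8.49, 8.53 and 8.38 in RWDD4 clones 17, 24, 5 and 6, and 8.66, 8.69, 8.61 and 8.56 in control clones 2, 3, 4 and 5. RWDD4 clone 5 was the highest clone for COPS4, COPS5 and COPS8. Control clone 2 was the lowest for COPS2, COPS3, COPS4 and COPS8. The 5 risers passed the test with any 1 clone left out.

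Promoter windows are shown for COPS2, COPS4, COPS8 and COPS3, which rose, and for COPS7A, which fell in the fit as reported. Those of GPS1, which also fell, are not printed. RefSeq promoter windows of the GRCh38.p14 build, of 300 bases from 250 before to 50 after a transcript start, were given for 8 of the 9 COPS genes and for GPS1. The windows printed lie at chr15:49155550-49155849 (minus strand) for COPS2, chr4:83034933-83035232 (plus strand) for COPS4, chr2:237085639-237085938 (plus strand) for COPS8, chr17:17280649-17280948 (minus strand) for COPS3 and chr12:6724037-6724336 (plus strand) for COPS7A, the last 2 being 1 of 2 windows each. They read 5′ to 3′ along the gene, and capitals mark each match to a searched motif on either strand.
COPS2: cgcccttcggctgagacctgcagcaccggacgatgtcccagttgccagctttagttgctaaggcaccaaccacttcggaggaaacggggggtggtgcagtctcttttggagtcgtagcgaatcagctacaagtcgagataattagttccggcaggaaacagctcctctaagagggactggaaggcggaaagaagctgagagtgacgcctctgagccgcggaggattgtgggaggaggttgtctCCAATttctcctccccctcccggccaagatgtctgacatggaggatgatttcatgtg
COPS4: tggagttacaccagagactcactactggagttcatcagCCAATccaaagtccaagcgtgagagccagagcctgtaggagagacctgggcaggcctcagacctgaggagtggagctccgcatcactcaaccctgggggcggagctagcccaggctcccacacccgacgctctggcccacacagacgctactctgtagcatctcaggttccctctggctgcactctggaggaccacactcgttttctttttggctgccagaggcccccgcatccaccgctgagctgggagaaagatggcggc
COPS8: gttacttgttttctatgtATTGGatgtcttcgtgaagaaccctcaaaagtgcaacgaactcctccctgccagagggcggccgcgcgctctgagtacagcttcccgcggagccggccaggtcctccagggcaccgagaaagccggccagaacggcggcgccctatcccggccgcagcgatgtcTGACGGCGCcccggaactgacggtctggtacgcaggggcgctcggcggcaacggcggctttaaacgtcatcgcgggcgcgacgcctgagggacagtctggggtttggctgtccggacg
COPS3: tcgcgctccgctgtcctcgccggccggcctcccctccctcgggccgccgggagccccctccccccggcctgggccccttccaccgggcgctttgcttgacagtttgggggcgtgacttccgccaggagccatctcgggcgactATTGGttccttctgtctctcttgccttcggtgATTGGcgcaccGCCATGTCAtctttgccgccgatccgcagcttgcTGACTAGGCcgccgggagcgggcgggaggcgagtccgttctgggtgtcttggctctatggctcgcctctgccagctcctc
COPS7A: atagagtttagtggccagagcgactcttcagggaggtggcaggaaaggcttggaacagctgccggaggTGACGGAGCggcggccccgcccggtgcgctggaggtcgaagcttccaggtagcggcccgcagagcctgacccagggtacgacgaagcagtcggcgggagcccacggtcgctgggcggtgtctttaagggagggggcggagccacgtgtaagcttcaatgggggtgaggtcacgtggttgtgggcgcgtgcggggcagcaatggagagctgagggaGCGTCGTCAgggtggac

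The searched motifs described here are TGACNNNGC, the core of the antioxidant response element bound by NRF1 and NRF2 with small MAF proteins, the interferon-stimulated response element, and CCAAT. No 2 matches overlapped. CCAAT, or its complement, occurred in a window of COPS2, COPS3, COPS4, COPS7A and COPS8, that is, in 5 of the 15 windows given for the 8 COPS genes and GPS1, beside 34.6% of all 35116 promoter windows. In COPS2 it begins 7 bases before the start, and in COPS4 and COPS8 it begins 212 and 232 bases before it. In COPS7A it lies only in the window that is not printed, 129 bases before the start. TGACNNNGC occurred in a window of COPS3, COPS7A, COPS8 and GPS1, also in 5 of 15 windows, beside 13.3% of all windows. It stood in genes that rose (COPS3, COPS8) and in genes that fell (COPS7A, GPS1). The letters of the interferon-stimulated element were in none of the 15 windows, beside 3.57% of all windows. A match is a description of the letters and not a binding site.

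A related list held the cullins, the genes that attach NEDD8 to them or process it, and the CAND exchange factors. Without GPS1, which was counted with the complex, 14 of its 23 genes were measured, of which 9 rose and 2 fell, where 25.1% of all genes rose and 21.6% fell. NAE1, 1 of the 2 subunits of the NEDD8-activating enzyme, had 8.58, 8.64, 8.94 and 8.80 in RWDD4 clones 17, 24, 5 and 6, and 6.26, 7.65, 7.13 and 7.49 in control clones 2, 3, 4 and 5. The RWDD4 clones lay together and above the control clones, and NAE1 rose by 1.61 (SE 0.25; adjusted p 0.000586). UBA3, its catalytic partner, rose by 1.10 (SE 0.19; adjusted p 0.00101). Of the 8 cullins 6 rose, beside the same 25.1% of all genes. They were CUL1, CUL2, CUL3, CUL4A, CUL4B and CUL5, which rose by 1.13 to 1.63, with CUL5 at 1.63 (SE 0.13) and CUL2 at 1.59 (SE 0.22). These 6 lie in the seventh to ninth deciles of the protein-coding genes by genomic span, where 44.3% to 51.2% of genes rose. With each array's trend over span removed they lay between 0.73 (CUL4A) and 1.19 (CUL5), all past the test. The atypical cullin CUL7 fell by 0.49 (SE 0.09), the 1 fall among the 8 beside 21.6% of all genes, and CUL9 lay at -0.01 (SE 0.12; adjusted p 0.939), but passed at -0.34 with each array's trend over span removed (adjusted p 0.013). CAND1, which exchanges the substrate receptors of cullins without NEDD8, rose by 1.89 (SE 0.26; adjusted p 0.000293), or 3.71-fold. Its paralog CAND2 fell by 0.42 (SE 0.10). The ring protein RNF7 lay at -0.0004 (SE 0.10) and the NEDD8 protease SENP8 at 0.18 (SE 0.15). Members of this list other than GPS1, CAND1, CUL5, NAE1 and CUL2 were named for their role after their values were seen.

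**Figure D2:**
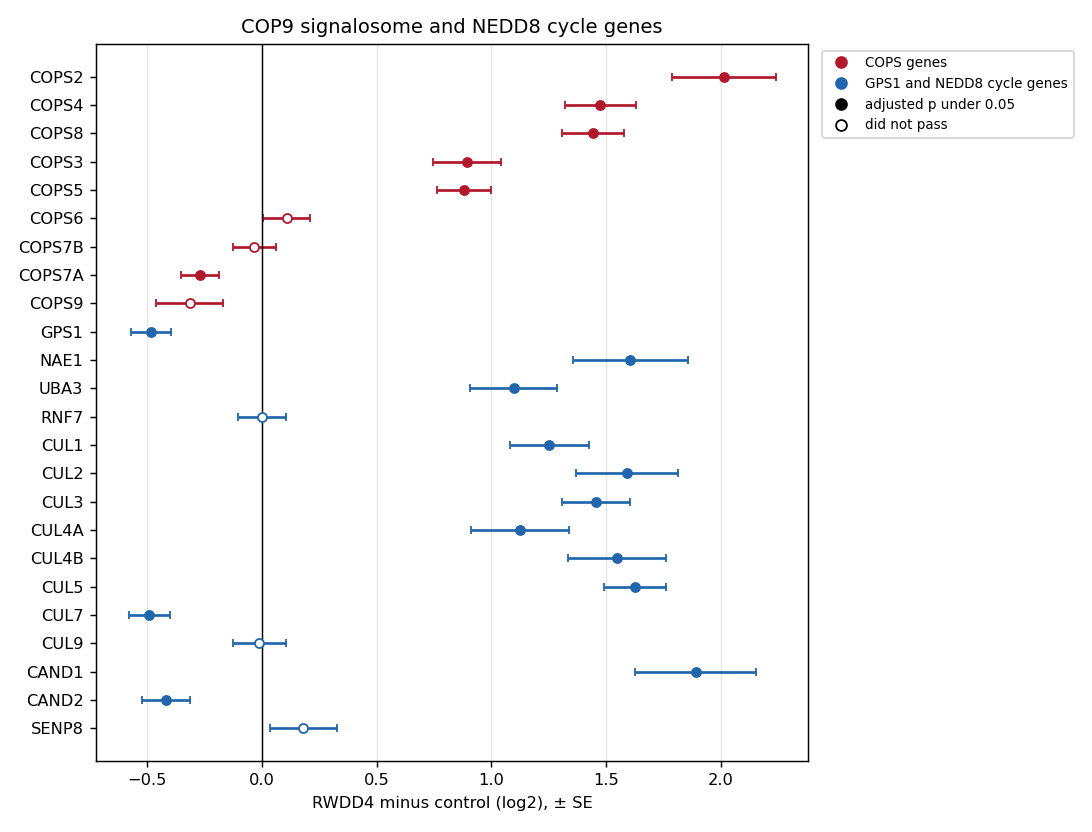
Fitted difference of RWDD4 minus control clones on the log2 scale, with its SE, for the 9 COPS genes (red) and for GPS1 and the measured genes of the NEDD8 cycle (blue). Filled points passed the test and open points did not, and the 6 cullins that rose lie between 1.13 and 1.63, in the same range as COPS4 and COPS8.

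Proteins that work with the proteasome without bearing a symbol of the rule were measured in part. The counts of this and the next 3 lists stand beside 25.1% of all genes that rose and 21.6% that fell. Of 10 such genes 9 were measured, 7 rose and 1 fell. The proteasome-bound deubiquitinases USP14 and UCHL5 rose by 1.44 (SE 0.29) and 0.93 (SE 0.13), TXNL1 by 0.92 (SE 0.21), and POMP, the maturation factor of the core, by 0.86 (SE 0.13; adjusted p 0.000572). ADRM1, a ubiquitin receptor, fell by 0.41 (SE 0.10; adjusted p 0.00805). POMP had 9.94, 9.90, 10.24 and 9.76 in RWDD4 clones 17, 24, 5 and 6, and 9.25, 9.25, 8.79 and 9.10 in control clones 2, 3, 4 and 5. The groups of POMP did not overlap. Among the factors that set proteasome gene transcription, 5 of 7 were measured, 2 rose and 3 fell. NFE2L2, which encodes NRF2, rose by 1.32 (SE 0.13), and NGLY1, the glycanase that processes NRF1, by 0.95 (SE 0.13). NFE2L1, which encodes NRF1, fell by 0.32 (SE 0.11; adjusted p 0.0386), and did not pass with 1 of RWDD4 clones 17 and 5 and control clones 3, 4 and 5 left out. The small MAF genes MAFF and MAFG fell by 0.59 (SE 0.12) and 0.48 (SE 0.10). Of the 7 measured shuttle and segregase genes UBQLN1, RAD23B and UBQLN2 rose, by 1.15, 0.82 and 0.43, and none fell in the fit as reported. UBQLN2 did not pass after quantile normalization (0.28, adjusted p 0.0526). NPLOC4, at -0.12 as reported, passed as lower with the span trend removed (-0.55, adjusted p 0.000661) and after median centring (-0.24, adjusted p 0.0391). UBQLN4, at -0.17 as reported, passed as lower with the span trend removed (-0.31, adjusted p 0.0471) and after quantile normalization (-0.33, adjusted p 0.0327). In the interferon and antigen processing list 2 of 8 measured genes rose, or 25.0%, and 5 fell. ISG15 lay at -1.95 (SE 0.41), IRF9 at -1.34 (SE 0.29), UBE2L6 at -0.998 (SE 0.26) and IRF1 at -0.73 (SE 0.15). ERAP2, which rose, lay at 0.79 (SE 0.23). ERAP2 did not pass with the span trend removed (0.45, adjusted p 0.0586). RWDD4 clone 24 stood apart in this list: the mean level of the 8 genes was 7.43, 8.24, 7.43 and 7.60 in RWDD4 clones 17, 24, 5 and 6, and 8.11, 8.45, 8.31 and 7.96 in control clones 2, 3, 4 and 5. The groups of ISG15, IRF9 and UBE2L6 overlapped, with clone 24 above control clone 5 in each. Those of ERAP2 overlapped too, with RWDD4 clone 17 (5.03) just below control clone 3 (5.04). Without RWDD4 clone 24 the differences were -2.43 (ISG15), -1.67 (IRF9) and -1.28 (UBE2L6).

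The 5 other genes that match the rule showed no common direction. PSMA3-AS1 had 7.38, 6.96, 7.77 and 7.91 in RWDD4 clones 17, 24, 5 and 6, and 6.49, 6.97, 6.66 and 6.86 in control clones 2, 3, 4 and 5. RWDD4 clone 24 lay just below control clone 3, so the groups overlapped. It rose by 0.76 (SE 0.19; adjusted p 0.00897). The array signal of PSMA3-AS1 cannot be assigned with certainty, since it overlaps PSMA3 in the reference annotation and the strand of its probes was not analysed here. The same limit holds for PSMB8-AS1, which overlaps PSMB8 and TAP1, and for PSMD6-AS2, which overlaps PSMD6. PSMB8-AS1, listed with 3 probe sets that hold the same value on every array, had 5.23 to 5.43 across RWDD4 clones, against 5.41 to 5.77 across control clones, and its difference was -0.25 (SE 0.10; adjusted p 0.0632). It passed without control clone 3 (-0.32, adjusted p 0.0246) and after median centring (-0.38, adjusted p 0.0159). PSMD6-AS2 lay at 0.19 (SE 0.12; adjusted p 0.201) and PSMG3-AS1 at -0.15 (SE 0.13; adjusted p 0.346). PSMC3IP, a partner of the recombinases in meiotic recombination, had 7.76, 8.09, 8.02 and 7.94 in RWDD4 clones 17, 24, 5 and 6, and 7.87, 7.83, 7.97 and 7.80 in control clones 2, 3, 4 and 5, with a difference of 0.08 (SE 0.10; adjusted p 0.499).

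Genomic span moved with the difference over all genes, and the COPS genes were set against it. COPS2, COPS3 and COPS7B lie in the same decile of the protein-coding genes by span, the sixth, in which 35.9% of genes rose and 18.9% fell. Their differences were 2.01, 0.89 and -0.03. COPS4 lies in the seventh decile, where 44.3% rose and 16.2% fell, and COPS5 in the fifth, where 29.5% rose and 22.8% fell. COPS8 spans 14586 bases and lies in the fourth decile, where 22.4% rose. COPS9 and COPS7A lie in the third and second deciles, where 36.4% and 38.7% fell, and COPS6, at 3219 bases, in the first, where 37.3% fell and 3.86% rose. With each array's trend over span removed the 5 risers lay at 1.75 (COPS2), 1.15 (COPS4), 1.43 (COPS8), 0.62 (COPS3) and 0.79 (COPS5), all past the test.

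**Figure D3:**
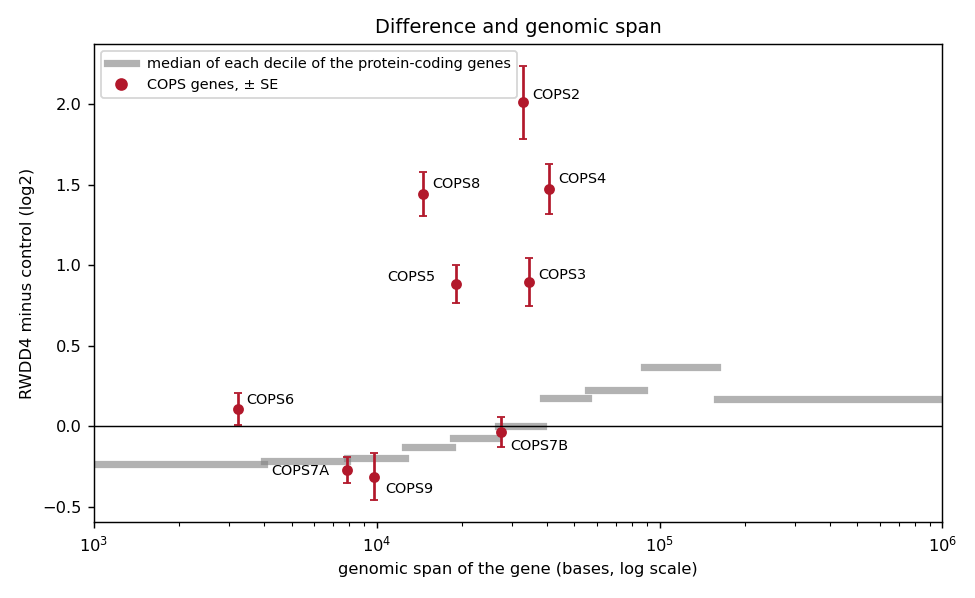
Fitted difference of RWDD4 minus control clones (log2, with SE) of the 9 COPS genes against genomic span in bases on a log axis; grey bars give the median difference of each decile of the protein-coding genes over its range of span. The deciles' medians lie between -0.23 and 0.37, and COPS2, COPS3, COPS4, COPS5 and COPS8 lie above the median of their own decile by more than their SE, as does COPS6. The bars of the first and last decile run past the ends of the axis.

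The clones also spread along 1 shared axis within their groups, which held 38.9% of the variance of the genes around their group means. Positions on it were -35.9 to -19.7 for RWDD4 clones, against 12.2 to 58.4 for control clones, with control clone 2 at 58.4, so the axis and the group cannot be told apart fully. With this position as a covariate none of the 9 COPS genes passed, and 1 of all 14884 genes did. COPS4 then lay at 1.09 (SE 0.31; adjusted p 0.208), COPS8 at 0.79 (SE 0.20; 0.173), COPS5 at 0.68 (SE 0.25; 0.302) and COPS2 at 0.67 (SE 0.20; 0.229). These 4 of the 9 had an unadjusted p under 0.05 in that fit, beside 1910 of all 14884 genes. COPS3 lay at 0.09 (SE 0.18; adjusted p 0.878). RWDD4 itself was at 1.88 (SE 0.43; adjusted p 0.159) in that fit. None of the genes of the related lists named above passed there either.

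**Figure D4:**
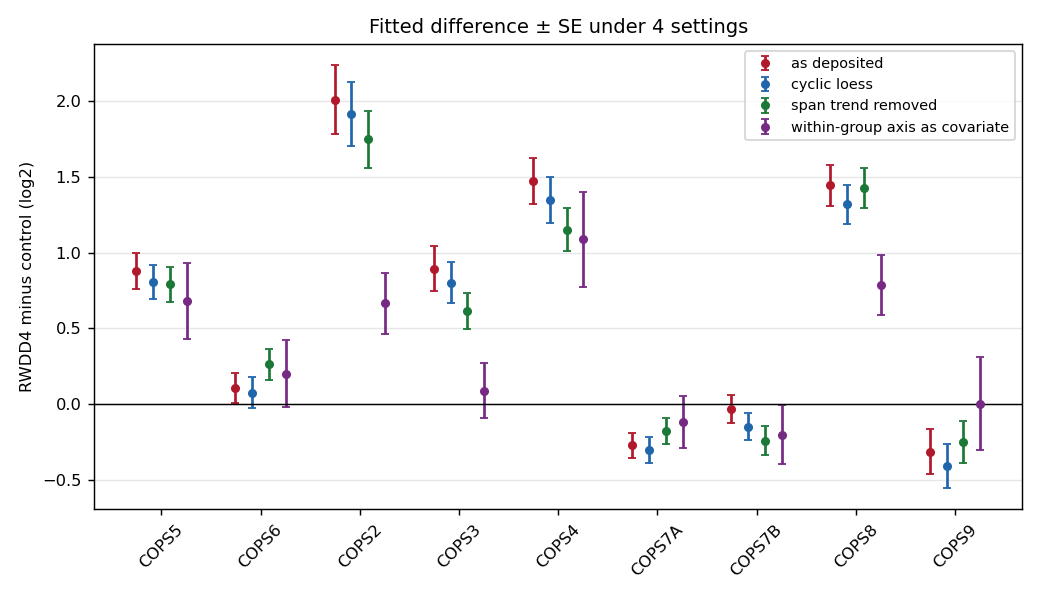
Fitted difference of RWDD4 minus control clones (log2, points) with its SE (bars) for the 9 COPS genes under 4 settings: the deposited values, cyclic loess, removal of each array's trend over genomic span, and the within-group axis as a covariate. COPS2, COPS3, COPS4, COPS5 and COPS8 stay above 0.6 in the first 3 settings, while with the covariate COPS3 lies at 0.09 and COPS2 at 0.67.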

How the data were processed

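RNA of 8 clonal PC-3 isolates was read on 8 arrays. The authors deposited log2 values, with 1 value for each probe set on each array. Partek and RMA are named, without versions, in the submitters' processing notes. RMA corrects background, normalizes arrays to each other and summarises probes; it compresses small differences near background. No source used here gives a build, a batch or the day of a scan. Signal over background was not analysed here, and the number of arrays limits the precision.

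Of 53617 probe sets 16098 had 1 symbol and stood for 14884 genes; the other 37519 are unnamed here. Where a gene had several probe sets, the brightest one (mean of the 8 arrays) was used; each of the 9 COPS genes had 1. RWDD4 minus control was fitted over all genes with limma 3.58.1 (lmFit, then eBayes; R 4.3.3), two-sided and without covariates, with Benjamini-Hochberg adjustment over all genes. The fit was checked on data made with known answers, in which each gene varied independently. That check does not cover a spread shared between genes, such as the within-group axis. P-values measure the spread between clones of 1 line.

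Members and lists were chosen with earlier results of these data known. Values in every clone were given for COPS5, in each class for the members with the largest changes past the test, and for further members by role. From each related list up to 4 genes past the test with the largest differences were named, with POMP, ADRM1, GPS1, NFE2L1, NFE2L2 and IRF1 whatever their test. Of the eIF3 list none was analysed here. The result of 1 further motif is not reported here. Alternatives covered the variance model, probe set choice, a filter on level, 3 scalings, array weights, span, the within-group axis and leaving out each clone.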

Additional observations from a re-analysis of the deposited data

How the results depend on the processing

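The 5 rises (COPS2, COPS3, COPS4, COPS5 and COPS8) passed in 17 of the 18 alternatives, with an adjusted p of at most 0.0037, and none passed once the position on the within-group axis entered the fit. There 0 COP9 signalosome genes rose and 0 fell, the median of the 9 was 0.20, and over all genes 0 rose and 1 fell. Some signs turned there among the members and related genes that had passed in the fit as reported. They were those of PSMA3-AS1 (-0.023), CUL4A (-0.10), ERAP1 (-0.12), ERAP2 (-0.35), TXNL1 (-0.26), UBE3C (-0.25), UBQLN2 (-0.048) and USP14 (-0.21). COPS9, which had not passed, went from -0.31 to 0.003, and other genes that had not passed turned too. The cause of these turns was not tested. With the span trend removed, 0 of the 9 genes fell, their median was 0.62, and over all genes 3012 rose and 5001 fell, beside 3741 and 3214 in the fit as reported. Median centring moved the median difference of all genes by -0.12 and gave 3307 up and 5765 down. Quantile normalization, median centring and cyclic loess each gave 2 falls among the 9 genes, COPS7A and COPS9. More of all 14884 genes fell there too, 3694, 5765 and 3287 in that order, beside 3214 in the fit as reported. With 1 clone left out the falls among the 9 numbered 0 to 2 (0 without RWDD4 clone 5 or 6, 2 without control clone 5), the rises 5 throughout and the median 0.73 to 0.93. Over all genes, 3372 to 3737 rose and 2258 to 3031 fell. No paired analysis was possible because the groups share 1 clone number, 5, and the labels do not say that it pairs clones. Signal over background was not measured, so limits for dim probe sets were not set.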
